A study of Ovis aries with 12 samples.

Results

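MYC, PIM1, BTG1, BTG2 and ATF4 are fast-responding regulators of growth, growth arrest and cellular stress, and they were followed here in the right ventricular free wall of lambs. They were chosen by name, and all 5 have a row in the deposited table of 27054 rows and were among the 13065 genes tested. The shunt group held 4 libraries from lambs aged 4 to 6 weeks that had received a graft between aorta and pulmonary artery in an operation before birth, so that blood crossed from left to right and the right ventricle worked against a raised pressure. The control group held 4 libraries from lambs of the same age range and the fetal group held 4 libraries from fetal lambs, with no allele or drug named for any group. The labels do not say whether control lambs had a sham operation or whether each library came from a different animal, and the p-values are therefore based on the spread among libraries, some of which may be technical. Of 17 listed cardiomyocyte markers 4 were tested, and their levels go with the labelled muscle. MYL2, the ventricular myosin light chain, MB (myoglobin), TPM1 (tropomyosin) and MYOZ2 (a Z-disc protein) each stood at 779 CPM or more in every library. CPM are counts scaled to a common library size after TMM normalization, which sets libraries to a common level over most genes. They are not divided by gene length, so levels are compared between libraries and not between genes.

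MYC is a transcription factor that pairs with MAX and drives ribosome production and cell growth, and PIM1 is a serine/threonine kinase that is switched on by cytokines through JAK and STAT proteins and protects cells from death. BTG1 and BTG2 belong to the BTG/TOB family of antiproliferative proteins, which bind the CCR4-NOT complex and hasten the removal of poly(A) tails. ATF4 is the transcription factor of the integrated stress response. In that response phosphorylated eIF2 lowers general translation while ATF4 mRNA is translated more, so the amount of ATF4 mRNA is only part of its control. In the heart, mRNAs of MYC and of other immediate early genes are known to respond to a rise in load.

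ATF4 was the member called between groups, higher in shunt than in fetal and, in a call that held in 8 of 22 alternatives, than in control libraries. MYC, PIM1, BTG1 and BTG2 passed the test in none of the 3 comparisons, and for MYC, PIM1 and BTG2 a single library stood high in some groups. Control against fetal libraries gave 0 calls among the 5 by edgeR's quasi-likelihood test at an adjusted p under 0.05, where 5.17% of all genes were called and 2.66% were called higher. PIM1 alone had an unadjusted p under 0.05 there, as had 18.4% of all genes, and it was the 1 member that DESeq2 called. Shunt against control gave 1 of 5, where 4% of all genes were called, 2.3% were called higher and 28% had an unadjusted p under 0.05. Shunt against fetal gave 1 of 5, where 15.7% were called, 9.16% were called higher and 32.8% had an unadjusted p under 0.05. Each pair of these comparisons shares a group of libraries.

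Facts of the whole data set bear on these values. Total counts were 24944197 to 42774036 in shunt, 20041416 to 44946875 in control and 19111348 to 27330975 in fetal libraries. The 13 mitochondrially encoded protein genes held 45.6% to 72.6% of the counts in shunt, 43.5% to 49.99% in control and 26.7% to 41.2% in fetal libraries. Shunt 1 and shunt 2, at 72.6% and 71.4%, kept 7152139 and 7140136 counts for all other genes, against 10702663 or more in each of the other libraries. TMM makes a change relative to the bulk of genes. When libraries were scaled by their totals alone, the median log2 change over all genes moved to -0.41 for control against fetal, to -0.59 for shunt against control and to -1.02 for shunt against fetal. The split of calls moved too. With library totals 99 of 805 called genes were higher in control than in fetal libraries (348 of 675 with TMM), 13 of 595 higher in shunt than in control (301 of 522 with TMM) and 137 of 7933 higher in shunt than in fetal (1197 of 2048 with TMM). In such whole-tissue samples, fewer cells of a type and less RNA per cell cannot be told apart.

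**Figure D1:**
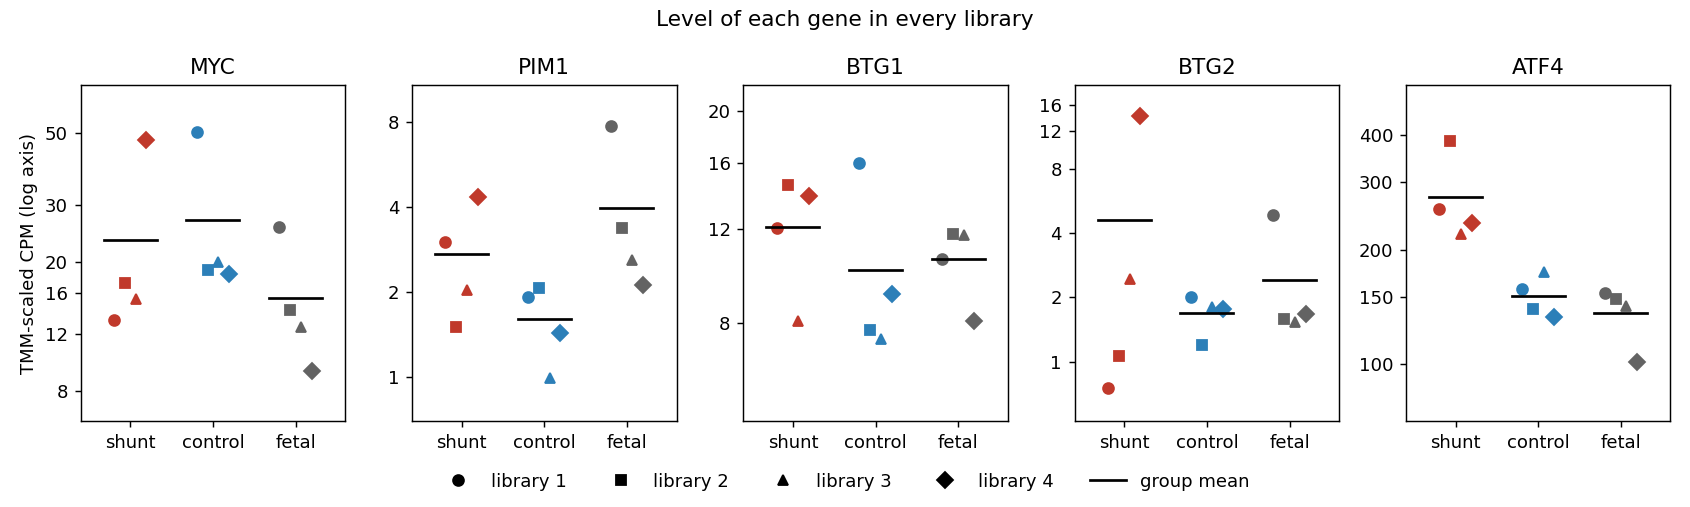
TMM-scaled CPM of each gene (log axes that differ between panels) in the 4 libraries of each group, with symbols for library number and black lines for group means. ATF4 in shunt libraries lies above all control and fetal libraries, whereas shunt 4 for MYC and BTG2, control 1 for MYC and fetal 1 for BTG2 lie apart from their groups. Fetal 1 is also the highest fetal library for PIM1.

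ATF4 (ENSOARG00000016775) stood at 255, 386, 220.1 and 235 CPM in shunt 1 to shunt 4. In control 1 to control 4 it stood at 158, 139.7, 175 and 133 CPM, and in fetal 1 to fetal 4 at 154, 148, 142 and 101 CPM. Every shunt library was above every control and fetal library, and control and fetal libraries overlapped. The means were 274 ± 76.2 CPM in shunt, 151 ± 18.996 CPM in control and 136 ± 23.9 CPM in fetal libraries (SD, n = 4 each). ATF4 was thus higher in shunt than in control by a log2 change of 0.86 (SE 0.213, 95% interval 0.40 to 1.31, edgeR adjusted p = 0.0455), which is 1.81-fold. It was higher in shunt than in fetal libraries by 1.01 (SE 0.213, 95% interval 0.55 to 1.46, edgeR adjusted p = 0.00771), or 2.01-fold. Control against fetal gave 0.15 (95% interval -0.30 to 0.60, edgeR adjusted p = 0.766), so the order was shunt, control, fetal, with the last pair within their spread. Of all genes, 6.06% were higher in shunt than in control libraries without overlap and 9.12% were higher in shunt than in fetal libraries without overlap.

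The ATF4 difference depended on what it was measured against. As CPM of the counts outside the mitochondrially encoded genes, ATF4 stood at 522, 614, 373 and 433 in shunt 1 to shunt 4, against 263 to 334 in control and 214 to 340.1 in fetal libraries, again with no overlap. As CPM of the whole library it stood at 143, 176, 169 and 235 in shunt libraries, against 148 to 176 in control and 139 to 239.5 in fetal libraries, and all groups overlapped. With library totals the edgeR log2 change was 0.17 for shunt against control (adjusted p = 0.598) and -0.11 for shunt against fetal (adjusted p = 0.691), where the median gene stood at -0.59 and -1.02. ATF4 was thus 0.76 and 0.92 above the median gene on that scale. Without shunt 1 and shunt 2, the libraries with the largest mitochondrial shares, the change was 0.57 for shunt against control (edgeR adjusted p = 0.149) and 0.72 for shunt against fetal (edgeR adjusted p = 0.0206). Leaving out any single library kept the call against fetal. The call against control was kept without control 3, shunt 3 or shunt 4, and was lost without any other single library (edgeR adjusted p up to 0.146). It was also lost with limma voom and quality weights (adjusted p = 0.0753), with the replicate number as a block (edgeR adjusted p = 0.0688) and with only these 2 groups in the model (edgeR adjusted p = 0.122). Over all 22 alternatives tried, the call against control was kept in 8 and lost in 14, with an adjusted p from 0.00376 to 0.598. The part of the mitochondrial share in the ATF4 values was not tested.

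**Figure D2:**
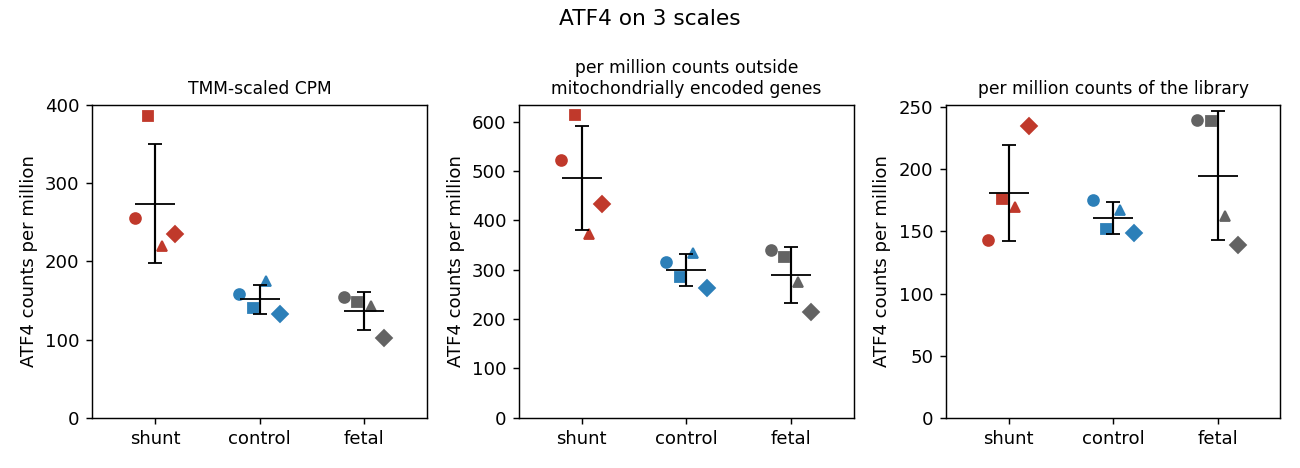
ATF4 in each library as TMM-scaled CPM, as CPM of the counts outside the 13 mitochondrially encoded genes and as CPM of the whole library (axes from 0, bars are mean ± SD, n = 4, symbols as library numbers 1 circle, 2 square, 3 triangle, 4 diamond). The shunt libraries lie above both other groups in the left and middle panels, and at 143 to 235 CPM overlap them in the right panel.

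Genes that ATF4 is known to control could be followed in small part, since 3 of 58 listed genes were tested and 0 of them was called in any comparison with TMM. VEGFA, an angiogenic growth factor whose mRNA also responds to lack of oxygen, stood at 150.1, 144, 211 and 128 CPM in shunt libraries, against 72.3 to 116 CPM in control libraries, without overlap (log2 change 0.70, SE 0.194, edgeR adjusted p = 0.0524). With DESeq2's size factors VEGFA was called (0.72, edgeR adjusted p = 0.0486), and with library totals it stood at 0.09 (adjusted p = 0.825). SQSTM1, an autophagy receptor, had -0.17 and PSPH, an enzyme of serine synthesis, had -0.30 (edgeR adjusted p = 0.482 and 0.603). The median of the 3 was -0.17, beside 0.01 for all genes. In shunt against fetal they had a median of -0.14, with VEGFA at 0.35 and PSPH at -0.38, and in control against fetal a median of -0.08, with VEGFA at -0.35 and PSPH at -0.08. NCK1, an adaptor that takes part in eIF2 dephosphorylation, was the 1 tested gene of the list of eIF2 kinases and phosphatases. With TMM it had 0.25 in shunt against control, 0.10 in shunt against fetal and -0.15 in control against fetal, with no call. PDIA3, a disulfide isomerase of the endoplasmic reticulum and the 1 tested gene of the unfolded protein response, had -0.20, -0.08 and 0.12 in the same order. Scaled by library totals, all 3 tested ATF4 targets (median -1.11), NCK1 (-1.01) and PDIA3 (-1.05) were called lower in shunt against fetal. The median gene stood at -1.02 there. Of both tested heat shock genes, CRYAB, the small chaperone alpha-B-crystallin, was higher in shunt than in fetal libraries by 1.27 (SE 0.216, edgeR adjusted p = 0.00278), and with library totals this was 0.27 and not called (edgeR adjusted p = 0.358). CRYAB had 0.64 in shunt against control and 0.63 in control against fetal (edgeR adjusted p = 0.0819 and 0.108).

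**Figure D3:**
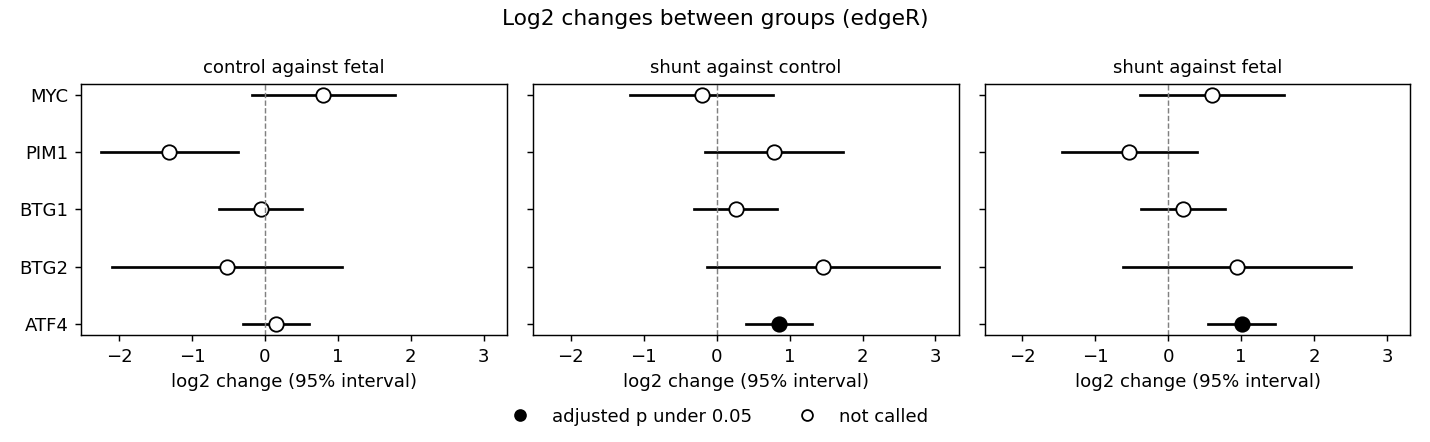
Log2 changes of the 5 genes in the 3 comparisons, with 95% intervals from the edgeR fit, where filled points passed an adjusted p of 0.05. ATF4 is filled in both comparisons of shunt libraries, and the widest intervals are those of BTG2, from -0.13 to 3.06 in shunt against control.

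MYC (ENSOARG00000008027) stood at 13.2, 17.3, 15.4 and 47.5 CPM in shunt 1 to shunt 4. In control 1 to control 4 it stood at 50.3, 18.9, 19.97 and 18.4 CPM, and in fetal 1 to fetal 4 at 25.7, 14.2, 12.6 and 9.20 CPM. Shunt 4 and control 1 were 3.10 and 2.64 times the mean of the other libraries of their groups, and the 3 groups overlapped. The log2 change was -0.20 for shunt against control (SE 0.456, 95% interval -1.18 to 0.78, edgeR adjusted p = 0.806), 0.60 for shunt against fetal (SE 0.459, adjusted p = 0.384) and 0.80 for control against fetal (SE 0.458, adjusted p = 0.381). The interval for shunt against control thus spans 0.441-fold to 1.71-fold. The direction against control rested on single libraries: it was -0.82 without shunt 4 and 0.29 without control 1, and with both shunt 1 and shunt 2 left out it was 0.21. The control mean was the highest, then the shunt and then the fetal mean, at 23.4 ± 16.2 CPM in shunt, 26.9 ± 15.6 CPM in control and 15.4 ± 7.15 CPM in fetal libraries (SD, n = 4 each), and neighbours in that order did not differ beyond their spread.

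Of 40 listed genes under MYC control 6 were tested, and none of the 18 listed partners and relatives of MYC was. PUS1, a pseudouridine synthase, was higher in shunt than in control libraries by 1.35 (SE 0.271, edgeR adjusted p = 0.0344) and than in fetal libraries by 0.88 (SE 0.268, adjusted p = 0.039). With library totals it had 0.60 and -0.32 and was called in neither. CCND2, a D-type cyclin, fell in control against fetal libraries (log2 change -1.44, SE 0.338, edgeR adjusted p = 0.0244) and was lower in shunt than in fetal libraries (-1.24, SE 0.337, adjusted p = 0.0256). The other 4, CDK4, DKC1, RAN and SHMT1, were not called in any comparison with TMM. The median of the 6 with TMM was 0.36 in shunt against control, -0.08 in shunt against fetal and -0.23 in control against fetal, beside 0.01, -0.01 and -0.00231 for all genes. Scaled by library totals, 5 of the 6 were called lower in shunt against fetal and 2 in control against fetal. The median gene stood at -1.02 and -0.41 there.

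PIM1 (ENSOARG00000014364) was counted 17 to 329 times per library. It stood at 3.00, 1.497, 2.04 and 4.35 CPM in shunt 1 to shunt 4. In control 1 to control 4 it stood at 1.92, 2.07, 0.993 and 1.42 CPM, and in fetal 1 to fetal 4 at 7.75, 3.38, 2.59 and 2.11 CPM. The control libraries lay below all fetal libraries, by a narrow margin between control 2 at 2.07 and fetal 4 at 2.11 CPM, whose counting intervals overlap (1.51 to 2.76 and 1.65 to 2.66 CPM, exact Poisson, 95%, counting error only). Of all genes, 10.2% were lower in control than in fetal libraries without overlap. PIM1 averaged 1.60 ± 0.490 CPM in control and 3.96 ± 2.58 CPM in fetal libraries (SD, n = 4 each), a log2 change of -1.31 (SE 0.439, 95% interval -2.25 to -0.38, edgeR adjusted p = 0.105). DESeq2's Wald test called it (adjusted p = 0.0414), as did edgeR with only these 2 groups in the model (adjusted p = 0.0461). Without fetal 1 the value was -0.73 (edgeR adjusted p = 0.426), and the adjusted p under 22 alternatives ran from 0.0414 to that value. For shunt against control it was 0.78 (95% interval -0.17 to 1.73, edgeR adjusted p = 0.26) and for shunt against fetal -0.53 (95% interval -1.46 to 0.39, adjusted p = 0.414). With library totals PIM1 was called in shunt against fetal, at -1.49 (edgeR adjusted p = 0.0337), where the median gene stood at -1.02 and 7933 genes were called. The order of the means was fetal, shunt (2.72 ± 1.25 CPM, SD, n = 4), control, and no neighbours in it passed the test. Without fetal 1 shunt against fetal stood at 0.0398.

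Upstream and beside PIM1, genes of JAK and STAT signalling were followed. GHR, the growth hormone receptor, fell in shunt against control (log2 change -0.83, SE 0.209, edgeR adjusted p = 0.0457), with 7.01 to 8.45 CPM in shunt and 9.82 to 15.7 CPM in control libraries. CDKN1A, the cell cycle inhibitor p21 that PIM kinases phosphorylate, was at 1.36 in control against fetal and at 1.19 in shunt against fetal (edgeR adjusted p = 0.0699 and 0.0587). Neither CDKN1A nor STAT5A, a transcription factor of cytokine signalling, was called in any comparison with TMM.

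BTG1 (ENSOARG00000016760) stood at 12.1, 14.5, 8.08 and 13.9 CPM in shunt 1 to shunt 4. In control 1 to control 4 it stood at 16.03, 7.76, 7.47 and 9.08 CPM, and in fetal 1 to fetal 4 at 10.5, 11.8, 11.7 and 8.09 CPM. The groups overlapped throughout, and control 1 was 1.98 times the mean of the other 3 control libraries. The log2 change was 0.26 for shunt against control (95% interval -0.31 to 0.83, edgeR adjusted p = 0.544), 0.20 for shunt against fetal (95% interval -0.37 to 0.77, adjusted p = 0.631) and -0.06 for control against fetal (95% interval -0.63 to 0.51, adjusted p = 0.94). Scaled by library totals, BTG1 was at -0.84 in shunt against fetal (edgeR adjusted p = 0.0498), above the median gene at -1.02.

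BTG2 (ENSOARG00000001574) had the widest pooled spread of the 5, which rested on the shunt group, and the lowest counts, with 11 in shunt 1 and 12 in shunt 2. It stood at 0.751, 1.06, 2.43 and 14.1 CPM in shunt 1 to shunt 4. In control 1 to control 4 it stood at 2.00, 1.19, 1.79 and 1.76 CPM, and in fetal 1 to fetal 4 at 4.85, 1.59, 1.54 and 1.67 CPM. Shunt 4 was 18.8 times shunt 1, whose exact Poisson interval was 0.375 to 1.34 CPM, and the shunt group spanned all control and fetal values. The log2 change was 1.46 for shunt against control (SE 0.741, 95% interval -0.13 to 3.06, edgeR adjusted p = 0.212), 0.94 for shunt against fetal (SE 0.728, adjusted p = 0.389) and -0.52 for control against fetal (SE 0.734, adjusted p = 0.768). Without shunt 4 the first was -0.21 and the second -0.73, and without fetal 1 the third was 0.10. The other tested genes of the family, TOB2 and BTG3, were not called in the main fit. TOB2, an antiproliferative relative, stood at 6.69, 3.43, 9.81 and 7.38 CPM in shunt libraries against 14.4 to 24.6 CPM in control libraries (log2 change -1.51, SE 0.407, edgeR adjusted p = 0.0506, or 0.0486 with DESeq2's size factors). In shunt against fetal TOB2 had -1.24 (edgeR adjusted p = 0.0507), and it was called there with DESeq2's size factors (adjusted p = 0.0493) and with TMM computed without the mitochondrially encoded genes (adjusted p = 0.0488). BTG3 had -0.33 in shunt against control, 0.09 in shunt against fetal and 0.42 in control against fetal. FOXO3, the 1 tested gene of the FOXO list and part of a family known to act on BTG1 transcription, had -0.25, 0.41 and 0.66 with no call.

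**Figure D4:**
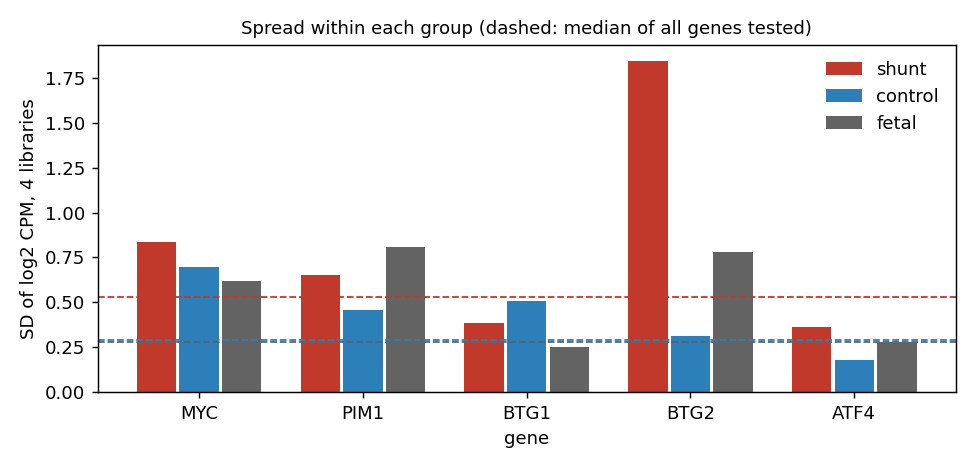
SD of log2 CPM over the 4 libraries of each group for the 5 genes, with dashed lines at the median SD of all genes tested in that group. BTG2 in the shunt group reaches 1.84, where the median gene has 0.53, and ATF4 stays below the median line in all 3 groups.

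The members differed among themselves in how much they varied within groups. The pooled SD of log2 CPM within groups was 1.17 for BTG2, 0.72 for MYC, 0.66 for PIM1, 0.39 for BTG1 and 0.28 for ATF4, beside a median of 0.42 over the 13065 genes. The order differed between groups: BTG2 had an SD of 1.84 in shunt, 0.31 in control and 0.78 in fetal libraries, and it was below MYC (0.70), BTG1 (0.51) and PIM1 (0.46) in control and below PIM1 (0.81) in fetal libraries. Of all genes 96.1% had a smaller SD than BTG2 and 23.8% a smaller SD than ATF4, and counting error adds to the SD of genes with few counts such as PIM1 and BTG2. Group membership held 75.5% of the variance of log2 CPM for ATF4, 40.3% for PIM1, 20.1% for MYC, 11.8% for BTG1 and 3.68% for BTG2. With few libraries such a share is not nil even where groups do not differ. No baseline was computed, so the low shares are no evidence of a group difference.

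The highest and lowest libraries differed between members. Within the fetal group, fetal 1 was highest for MYC, PIM1, BTG2 and ATF4, fetal 2 was highest for BTG1, and fetal 4 was lowest for MYC, PIM1, BTG1 and ATF4. Within the shunt group, shunt 4 was highest for MYC, PIM1 and BTG2 and shunt 2 for BTG1 and ATF4. Within the control group, control 1 was highest for MYC, BTG1 and BTG2, control 2 for PIM1 and control 3 for ATF4. Fetal 1 and control 1 were also the libraries with the most counts in their groups, and shunt 4 was not.

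Immediate early genes outside the 5 members moved with some of these libraries, and FOS, EGR1 and ZFP36 were chosen for display after their values were seen. FOS, a subunit of the AP-1 transcription factor, stood at 0.819, 8.19, 14.7 and 57.4 CPM in shunt 1 to shunt 4. It stood at 2.16 to 5.79 CPM in control libraries and at 53.9, 13.8, 2.07 and 0.703 CPM in fetal 1 to fetal 4. EGR1, a zinc finger transcription factor, stood at 94.8 CPM in shunt 4 and 139.3 CPM in fetal 1, and at 34.8 CPM or less elsewhere. Shunt 4 and fetal 1 were thus high for FOS and EGR1 as well as for MYC, PIM1 and BTG2. Control 1, which was high for MYC, had 2.38 CPM of FOS, where control 3 was the highest control library at 5.79 CPM. For EGR1 and ZFP36, control 1 was the highest control library. It stood at 7.52 CPM of EGR1 and 57.3 CPM of ZFP36, which is 2.03 and 1.72 times the mean of the other 3. The part of a general early response in the values of the members was not tested.

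**Figure D5:**
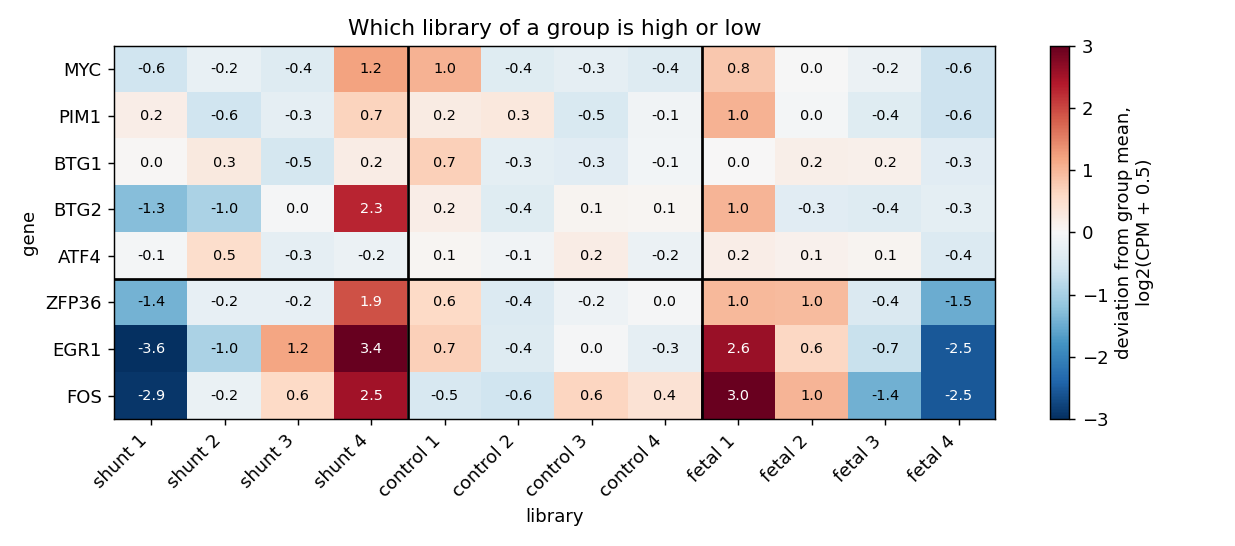
Deviation of log2(CPM + 0.5) from the group mean in each of the 12 libraries, for the 5 genes above the line and 3 immediate early genes below it (red is above the group mean, blue below). Shunt 4 is high for BTG2 (2.27), EGR1 (3.36) and FOS (2.53), and fetal 1 for BTG2 (1.01), EGR1 (2.596) and FOS (2.96).

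Of 46 listed immediate early genes 7 were tested. NFKBIA, the inhibitor of NF-kB, rose in control against fetal libraries (log2 change 1.396, SE 0.374, edgeR adjusted p = 0.0447; with library totals 0.93, adjusted p = 0.0959). It was higher in shunt than in fetal libraries (2.32, SE 0.385, edgeR adjusted p = 0.00278). CCN2, a secreted matrix protein, fell in control against fetal libraries (-3.63, SE 0.707, edgeR adjusted p = 0.0122). In shunt against control 0 of 7 were called, with NFKBIA at 0.92 and ZFP36, an RNA-binding protein that shortens the life of cytokine mRNAs, at 1.79 (edgeR adjusted p = 0.125 and 0.127), and 4 had an unadjusted p under 0.05, as had 28% of all genes. Of these 4, NFKBIA, ZFP36 and CCN2 (1.64) were higher, and KLF4, a zinc finger transcription factor, was lower at -0.89, while RHOB, a small GTPase, was at -0.51. The median of the 7 was 1.64 in shunt against control, -0.14 in shunt against fetal and -0.23 in control against fetal, beside 0.01, -0.01 and -0.00231 for all genes. The value of 1.64 is that of CCN2, and ZFP36, FOS and EGR1 lay above it. For these, shunt 4 was 5.49, 7.26 and 11.3 times the mean of the other shunt libraries. FOS, EGR1, ZFP36, KLF4 and RHOB were called in no comparison with TMM. Scaled by library totals, 3 of the 7 genes were called lower and 1 higher in shunt against fetal, where the median gene stood at -1.02.

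Markers of other cell types were compared for the same libraries. Of 15 listed lymphocyte markers, cells in which BTG1 and PIM1 are well expressed, 3 were tested, and their sum was 1.41 to 2.29 CPM in shunt, 1.04 to 2.30 CPM in control and 0.176 to 2.57 CPM in fetal libraries. Of 10 myeloid markers 3 were tested, with sums of 9.97 to 23.7 CPM in shunt, 14.5 to 26.7 CPM in control and 5.58 to 13.5 CPM in fetal libraries. Of 11 fibroblast markers DCN and TIMP1 were tested, with sums of 276 to 555 CPM in shunt, 345 to 446 CPM in control and 411 to 539 CPM in fetal libraries. TIMP1, a secreted inhibitor of matrix proteases, was called higher in shunt than in control (log2 change 2.53, edgeR adjusted p = 0.000209) and than in fetal libraries (1.75, adjusted p = 0.000527), and DCN, a matrix proteoglycan, was called in neither. With library totals 1 of these 2 genes was called higher in shunt than in control libraries. In shunt against fetal 0 were then called higher and 1 was called lower. Of 7 adipocyte markers 4 were tested, with sums of 9.33 to 119.9 CPM in shunt, 6.38 to 21.6 CPM in control and 3.08 to 7.91 CPM in fetal libraries, and PLIN1, a coat protein of fat droplets, stood at 0 in shunt 1 to shunt 3. FABP4, a fatty acid binding protein, stood at 3.30 to 113 CPM in shunt and at 0.0471 to 0.923 CPM in fetal libraries and was called (edgeR adjusted p = 0.00816), as was PPARG, the master regulator of fat cells (adjusted p = 0.0114). LIPE, a lipase, ran the other way and was called lower in shunt than in control libraries (log2 change -1.90, edgeR adjusted p = 0.0487). With library totals 1 of the 4 adipocyte markers was called higher and 1 lower in shunt against fetal. GNLY, a granule protein of killer lymphocytes, was called higher in shunt and in control than in fetal libraries (edgeR adjusted p = 0.0286 and 0.0417), at 0 to 1.31 CPM in shunt, 0.496 to 1.01 CPM in control and 0 to 0.117 CPM in fetal libraries. With library totals 0 of the 3 lymphocyte markers were called in either comparison with fetal libraries. The muscle marker MB was called higher in control than in fetal libraries (log2 change 1.05, edgeR adjusted p = 0.0218), and with library totals 0 of the 4 tested cardiomyocyte markers were called there. Both tested endothelial markers summed to 52.5 to 134 CPM in shunt, 61.4 to 84.8 CPM in control and 107 to 118 CPM in fetal libraries. Both tested markers of smooth muscle and pericytes summed to 1.497 to 16.4 CPM in shunt, 3.77 to 12.8 CPM in control and 18.1 to 34.7 CPM in fetal libraries. The red blood cell and nerve lists had 0 tested genes. The part of any of these cells in the values of the 5 genes was not tested.

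Likeness of pattern was measured as Pearson's r of log2 CPM over the 12 libraries with each of 476 other tested genes that carry an unnumbered symbol, as a description of libraries that share their scaling. The genes most like ATF4 were HEXA, a lysosomal hexosaminidase subunit, with r = 0.965, PPIE, a peptidyl-prolyl isomerase, with r = 0.912, and DEGS1, a dihydroceramide desaturase, with r = 0.896. Without shunt 1 and shunt 2 these were 0.952, 0.790 and 0.726. The genes most like BTG2 were MYD88, an adaptor of Toll-like receptors, with r = 0.852, AQP1, a water channel, with r = 0.815, and EGR1 with r = 0.805, and without shunt 1 and shunt 2 these were 0.945, 0.749 and 0.761. The genes most like MYC were SNRPA1, a spliceosome protein, with r = 0.825, and CD9 and NFIL3, both with r = 0.739, and without shunt 1 and shunt 2 these were 0.835, 0.753 and 0.792. For PIM1, INHBA, an activin subunit, and CFL1, the actin-severing protein cofilin, were among them with r = 0.780 and 0.750, and without those libraries 0.764 and 0.783. For BTG1 they were CYTH2, EDN1 and TLR4 with r = 0.744, 0.743 and 0.725, and without those libraries 0.721, 0.693 and 0.696. Among the members the closest pair over all 12 libraries was MYC and BTG2 with r = 0.640 (0.621 without shunt 1 and shunt 2). Without those libraries MYC and BTG1 were closer, with r = 0.651 (0.501 over all 12), and ATF4 had r = -0.0015 with BTG2 (0.641 without them) and 0.203 with MYC (0.574).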

How the data were processed

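Stranded mRNA libraries were sequenced in read pairs of 75 bases, per the labels' protocols. The authors deposited whole-number counts for each gene and library, in 12 columns. No source used here names the aligner, counter, build or strand setting, so overlapping genes and close copies, such as HSPA1A, may share reads. The counts were analysed in R 4.3.3 with edgeR 4.0.16: filterByExpr, TMM, 1 quasi-likelihood model of the 3 groups (glmQLFit, robust, glmQLFTest) and Benjamini-Hochberg adjustment over all 13065 genes, called under 0.05. Standard errors follow from the F statistic, and 95% intervals from the t distribution. Log2 CPM used a prior count of 2. Alternatives used limma 3.58.1 and DESeq2 1.42.0, other scalings, filters and fewer libraries. The fit was tested on simulated data with known changes. Of 1.5-fold changes it called 0% in shunt against control and 2% in each other comparison. Of 2-fold changes it called 12% in shunt against control, 22% in shunt against fetal and 24.5% in control against fetal. A gene that was not called may thus still differ by that much. In a chi-square test no library repeated another of its group.

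The members and lists were chosen with earlier results of these data known. Of 313 listed pathway genes 31 have a row by symbol and 28 were tested, and of 94 cell type markers 20 were tested. By rule the text names the members, called list genes or otherwise up to 2 list genes with the smallest p, and the 3 most alike genes. Other names followed the values, and some genes of the lists are not reported here. Intervals on counts cover counting error only.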

Additional observations from a re-analysis of the deposited data

Results flagged for a closer look

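Of 34 sets of 4 libraries examined, over 11 genes and the mitochondrial share, 7 had a highest library far from the other 3 (by Dixon's test of the gap to the nearest library at the 95% level). Chance flags about 1 in 20 such sets where values are normally distributed, but CPM were used here without a log. Also, 6 of the 11 genes were taken up after their values were seen. For both reasons the number found cannot be read against that rate. Sets whose highest count was under 10 were left out. Shunt 4 was far above its group for MYC at 47.5 CPM, BTG2 at 14.1 CPM, ZFP36 at 351.8 CPM, HSPA1A at 382 CPM and IL6 at 26.97 CPM. Control 1 was far above its group for MYC at 50.3 CPM, and fetal 1 for BTG2 at 4.85 CPM. ATF4, PIM1 and BTG1 had no such library in any group.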

How the results depend on the processing

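Each of the 15 results of a member was recomputed under 22 alternatives, and 296 of these 330 values kept direction and side of the threshold, most of them for results that were not called. Of the calls, ATF4 in shunt against fetal was kept in 21 of 22 and ATF4 in shunt against control in 8 of 22. Scaled by library totals, ATF4 was at -0.28 in control against fetal, 0.17 in shunt against control and -0.11 in shunt against fetal, BTG1 at -0.38 in shunt against control and -0.84 in shunt against fetal, MYC at -0.27 and PIM1 at -1.49 in shunt against fetal, and 7933 genes were called in shunt against fetal. ATF4 in shunt against control was not called by limma voom with quality weights (0.76), with the replicate block (0.83), with only the 2 groups compared (0.85) or without shunt 1 and shunt 2 (0.57, where MYC was at 0.21). The other 9 losses came from leaving out single libraries. PIM1 in control against fetal was called at -1.31 by DESeq2's Wald test and with only the 2 groups compared. Counts of called genes moved beyond 1.5 times to 1248 (DESeq2), 2414 (voom), 1913 (2 groups) and 1672 (without shunt 1 and shunt 2) for control against fetal, to 1981, 67, 4 and 64 in that order for shunt against control, and to 1299 (voom), 1073 (2 groups) and 1314 (without shunt 1 and shunt 2) for shunt against fetal.

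With the replicate block 61 genes were called in shunt against control, 513 in control against fetal and 1444 in shunt against fetal. Same-numbered libraries correlated in their deviations at -0.190 to 0.154 and 3 of 12 pairs correlated best with their own number. This gave no sign that the numbers pair the libraries, but with 4 libraries a group it cannot exclude a pairing.

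Leaving out each library in turn gave, for control against fetal, -0.36 to 0.0673 for BTG1, -0.66 to 0.10 for BTG2 and 259 to 886 called genes. For shunt against control it gave 0.63 to 0.95 for ATF4, -0.21 to 1.81 for BTG2, -0.82 to 0.29 for MYC and 6 to 2169 called genes. For shunt against fetal it gave -0.73 to 1.56 for BTG2, -0.0152 to 0.98 for MYC, -0.86 to 0.0398 for PIM1 and 957 to 2855 called genes. The mitochondrial share differed by 10.9 to 15.7 percentage points for control against fetal, 11.1 to 20.1 for shunt against control and 24.1 to 33.1 for shunt against fetal. The cause of these shifts was not tested. Depth limits PIM1 and BTG2 most, with counts down to 17 and 11.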

Other observations

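Genes of the inflammatory and chaperone responses, chosen after their values were seen, did not all peak in the same shunt library. IL6, a cytokine that signals through STAT3, was counted 720 times in shunt 4 and 7, 0 and 3 times in shunt 1 to shunt 3. It was counted 0, 0, 3 and 0 times in control 1 to control 4 and 0 times in each fetal library, and too few libraries held counts for it to be tested. HSPA1A, an inducible chaperone, stood at 10.2, 55.1, 31.05 and 382 CPM in shunt 1 to shunt 4, at 26.7 to 166 CPM in control and at 25.6 to 122.5 CPM in fetal libraries. NFKBIA ran the other way and stood at 426, 699.8, 311 and 162 CPM in shunt 1 to shunt 4, so that shunt 4 was its lowest shunt library, against 155 to 265 CPM in control and 53.6 to 117 CPM in fetal libraries.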
